A study of Komagataella phaffii CBS 7435 with 54 samples.

Results

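The genes described here are those whose transcript level in glucose-limited chemostats of Pichia pastoris (Komagataella phaffii) was already at least 2-fold higher at the dilution rate of 0.025 h-1 than at 0.1 h-1. They were chosen by that measured difference, as the array probes with a PAS_ locus tag whose mean log2 ratio of culture over reference pool was higher by at least 1 at 0.025 h-1. The rule was met by 57 of 5077 such probes. A further 479 probes had a difference of 0.5 up to 1 and are used below as the closest set for comparison. The deposited files pair these locus tags with no gene names or functions, and neither does the reference gene table, in which 54 of the 57 tags are listed (RefSeq, assembly ASM2700v1; the exceptions are PAS_c034_0018, PAS_c034_0012 and PAS_c157_0001). The genes are therefore given by locus tag, without a statement on what their products do.

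In a chemostat, medium flows in and culture flows out at the same rate, so that at steady state the specific growth rate equals the dilution rate, and the concentration of the limiting nutrient settles at a lower level the slower the culture grows. In a retentostat the cells are held back by a filter while medium passes through, so that a constant or declining feed is shared by more and more cells and growth approaches zero. Yeasts respond to scarce glucose by relieving glucose repression, a switch by which genes for the use of other carbon sources and for transport become transcribed.

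All cultures were of strain CBS 7435 Δflo8. It is a single-colony isolate in which FLO8 was disrupted by a KanMX cassette, as the methods describe, while the sample labels name the parent strain. The retentostat samples are from run times of 21 h (day 1), 65 h (day 3), 116 h (day 5), 380 h (day 16) and 545 h (day 23) in larger reactors with a declining glucose feed, and the steady-state chemostats ran at 0.025, 0.05, 0.075 and 0.1 h-1. Every condition has 3 numbered replicates, each hybridized against the same kind of reference pool of many growth conditions on 2 arrays with opposite dyes, 54 arrays on 9 slides in all. Since the methods describe fewer cultures than replicates for each condition, some replicates must share a culture, and both the errors (SD for standard deviation, n = 3) and the p values refer to numbered replicates whose spread may be technical. The retentostat days are repeated samples of the same runs, per the study, and the fit treated them as independent. The level of FLO8 itself was not analysed here.

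The share of spots well above background on the culture side of an array was 94.9% at the median and 89.9 to 98.4% over the arrays, and the median culture signal of an array was between 1440 and 4608 in the retentostat and between 2591 and 7988 in the chemostats. Of the 57 genes, 55 were well above background on all 54 arrays, and none was saturated on any array. The others, PAS_chr3_1171 and PAS_chr3_0353, were above background on 5 of the 6 arrays at 0.1 h-1. The median SD over replicates was 0.075 on the log2 scale for the 57 genes and 0.057 for all 5371 probes.

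All values below are log2 ratios to the pool, or differences of them, and a difference of 1 is a 2-fold change. The difference that chose the genes (0.025 minus 0.1 h-1) lay between 1.00 and 2.59 with a median of 1.19, and is given as a description with no test. It reached 2 in 4 genes and 1.5 in 9 genes, and it was under 1.1 in 20 genes. Over all probes, 1.14% were at or above 2-fold higher in the same contrast. Just inside the threshold, PAS_chr4_0828 had 1.37 ± 0.16 at 0.025 h-1 and 0.37 ± 0.035 at 0.1 h-1, a difference of 1.002, and PAS_chr1-1_0475 had 0.53 ± 0.084 and -0.48 ± 0.012 at the same rates, a difference of 1.005. Just outside it, PAS_chr3_0578 differed by 0.999 and PAS_chr2-1_0723 by 0.997.

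The largest difference belonged to PAS_chr2-2_0208. Its replicates had 0.73, 0.76 and 0.34 at 0.025 h-1, against -2.12, -1.94 and -1.89 at 0.1 h-1. The gene was thus below the pool at the fastest growth and above it at the slowest chemostat growth. Second came PAS_chr2-1_0192, with 0.25, 0.29 and 0.15 at 0.025 h-1, against -2.26, -2.24 and -2.22 at 0.1 h-1. PAS_chr3_0023 had 3.23, 3.26 and 2.87 at 0.025 h-1, against 0.71, 0.66 and 0.62 at 0.1 h-1. PAS_chr4_0627 had -0.96, -0.87 and -1.03 at 0.025 h-1, against -3.18, -3.19 and -3.13 at 0.1 h-1. These 4 genes share the size of the difference and not the level, since PAS_chr3_0023 was above the pool in every condition and PAS_chr4_0627 below it in every chemostat.

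The levels of the 57 genes spread widely. On day 23 of the retentostat the ratio to the pool had a median of 1.40 and 9 genes were below the pool. At 0.025 h-1 the median was 0.46 and 19 genes were below it. At 0.1 h-1, the ratio ran between -3.54 (PAS_chr3_0861) and 1.37 (PAS_chr2-2_0403), with a median of -0.90, and 45 genes were below the pool.

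Within the chemostats the genes stood in graded order. In 54 of the 57 genes the means followed the order 0.025, 0.05, 0.075 and 0.1 h-1 with the highest level at the lowest rate. The exceptions were PAS_chr3_0861, which had -3.59 ± 0.23 at 0.05 h-1 and -3.50 ± 0.050 at 0.075 h-1, and PAS_chr3_0449 and PAS_c157_0001, which were lower at 0.075 h-1 than at 0.1 h-1 by log2 differences of -0.043 and -0.053, within the spread of their replicates. Relative to 0.1 h-1, the median difference was 0.69 at 0.05 h-1 and 0.35 at 0.075 h-1. The share of the difference at 0.025 h-1 that was present at 0.05 h-1 had a median of 57.03%. That share was lowest in PAS_chr3_0861 (-4.47%), which stayed near its level at 0.1 h-1 in the chemostats at 0.05 and 0.075 h-1, and highest in PAS_c131_0020 (81.7%). At 0.05 h-1, 7 of the genes were at least 2-fold above 0.1 h-1 (0.168% of all probes), and at 0.075 h-1 none was (0% of all probes). These values share the replicates at 0.1 h-1 with the rule and were not tested. The order and the share at 0.05 h-1 also use the replicates at 0.025 h-1, so the rule fixed both ends of the order. How many of all probes have this order was not counted.

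**Figure D1:**
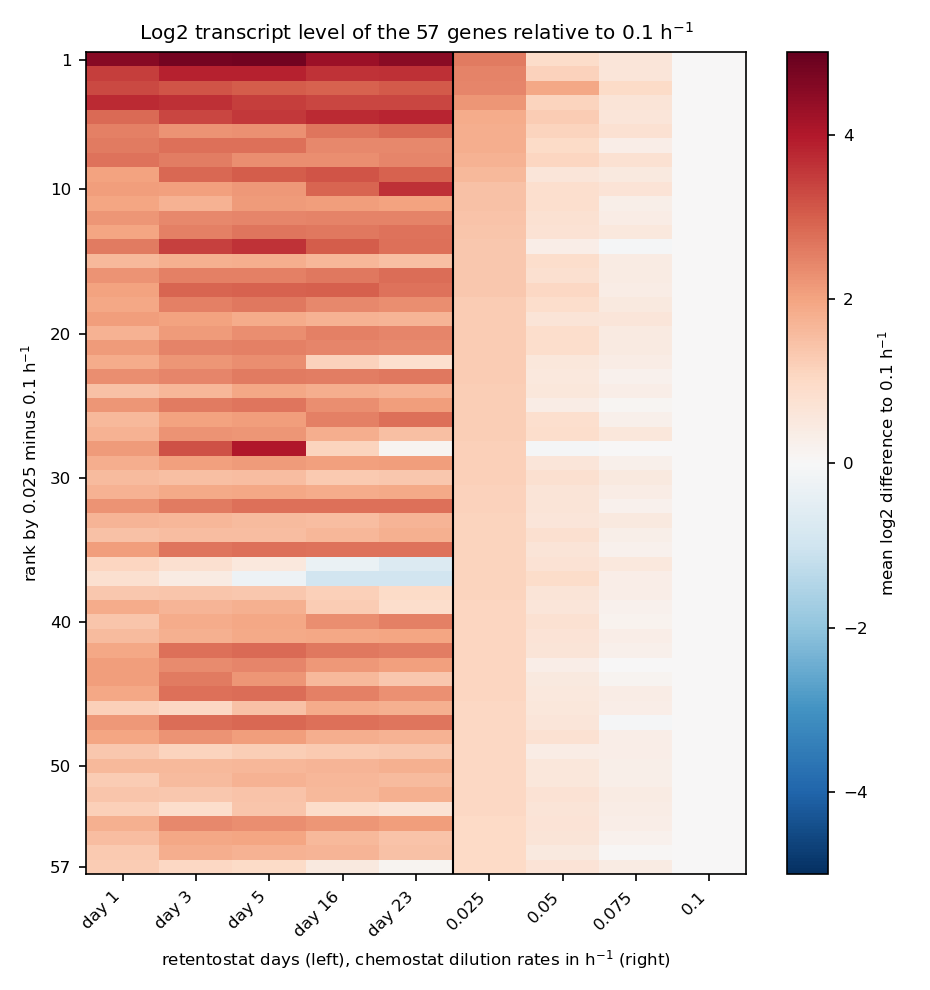
Mean log2 difference to the chemostat at 0.1 h-1 (color) for each of the 57 genes (rows, ranked by 0.025 minus 0.1 h-1) on the 5 retentostat days (left of the line) and in the 4 chemostats (right, dilution rate in h-1). Most rows are redder on the retentostat days than at 0.025 h-1, where the median difference was 1.19, and the blue cells on the later days belong to PAS_chr3_0662 and PAS_c131_0020, which were below their level at 0.1 h-1 by up to 0.67 and 0.97.

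The chemostats at 0.05 and 0.075 h-1 did not enter the rule, and comparing them asks whether the genes also differed between intermediate growth rates. None of the 57 genes was called, that is, reached an adjusted p value below 0.05 in limma together with a change of more than 2-fold, in either direction. Over all probes, 0.0186% were called higher and 0.0372% lower at 0.05 h-1. By the adjusted p value alone, 43 of the 57 genes were higher at 0.05 h-1 (17.4% of all probes) and 0 were lower (7.19% of all probes), and 47 were higher and 0 lower at an unadjusted p value below 0.05 (24.6% and 12.6% of all probes). The difference had a median of 0.35 in the 57 genes, 0.20 in the 479 genes below the threshold and 0.03 over all probes, and 289 of the 479 genes (60.3%) were higher by the adjusted p value. In 49 of the 57 genes the replicates at 0.05 h-1 lay above those at 0.075 h-1 without overlap, and in 0 genes below (27.8% and 13.4% of all probes). On the 2 slides that held both rates, the median difference of the 57 genes was 0.36 on each.

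The largest of these differences was that of PAS_chr3_0023, with 2.65, 2.60 and 2.55 at 0.05 h-1, against 1.65, 1.85 and 1.42 at 0.075 h-1 (difference 0.96, standard error [SE] 0.097, adjusted p = 8.41e-07, limma). PAS_chr4_0945 followed with -0.11 ± 0.051 at 0.05 h-1 and -0.80 ± 0.028 at 0.075 h-1 (difference 0.68, SE 0.090, adjusted p = 2.16e-05, limma). At the other end stood PAS_chr3_0861 (difference -0.09, adjusted p = 0.833) and PAS_chr1-1_0051 (difference 0.03, adjusted p = 0.838), whose replicates overlapped. The replicates of PAS_chr1-1_0051 at 0.05 h-1 also had an SD of 0.29.

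In the retentostat, most of the genes were further above the chemostat at 0.1 h-1 than the rule required at 0.025 h-1. The median difference to 0.1 h-1 began at 1.92 (day 1), was near 2.2 in the middle of the run (2.23 for day 3, 2.22 for day 5, 2.15 for day 16) and ended at 2.07 (day 23). At least 2-fold above 0.1 h-1 were 56 of the 57 genes on day 1, with 8.08% of all probes. The number was 54 for day 3 (all probes, 11.9%), 54 for day 5 (12.5%), 53 for day 16 (12.3%) and 49 for day 23 (12.3%). The number of genes at this distance thus declined towards day 23 while the median stayed near its level on day 3. The lowest gene was at 0.78 on day 1 and at -0.97 on day 23, and the highest, at 4.54 on day 1 and 4.53 on day 23, was PAS_chr2-2_0208 on both days. The mean over the replicates exceeded that of the 0.025 h-1 chemostat in 55 genes on day 1 and in 49 genes on day 23. These values share replicates with the rule, and they compare different reactor systems, so they are a description. The counts against 0.025 h-1 were not made over all probes.

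Comparisons of the retentostat with the chemostat at 0.05 h-1 use no sample of the rule. Reactor type, cell density, time in culture and growth rate cannot be told apart in them. The study made no direct comparison of samples between the systems, and instead expressed both relative to the chemostat at 0.1 h-1. For day 1 against 0.05 h-1 no within-slide difference was available, so slide and condition were not separated there. On day 1, 37 of the 57 genes were called higher than at 0.05 h-1 (3.59% of all probes) and 0 lower (1.27% of all probes). The median difference was 1.22 for the 57 genes, 0.69 for the 479 genes below the threshold, of which 96 (20%) were called higher, and 0.02 over all probes. By the adjusted p value alone, 56 of the 57 genes were higher on day 1 (38.1% of all probes) and 0 lower (34.8%), and the same numbers, 56 and 0, had no overlap of replicates (36.5% and 33.6% of all probes). The exception was PAS_c131_0020, with -0.70 ± 0.15 on day 1 and -0.58 ± 0.076 at 0.05 h-1 (difference -0.12, SE 0.0996, adjusted p = 0.286, limma).

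On day 23, 41 of the 57 genes were called higher than at 0.05 h-1 (8.9% of all probes) and 2 lower (7.67% of all probes), with a median difference of 1.38, against 0.90 in the 479 genes, 202 (42.2%) of them called higher, and 0.05 over all probes. By the adjusted p value alone, 52 were higher and 3 lower (43.9% and 38% of all probes), and 52 and 3 had no overlap of replicates (43.4% and 37.8%). On the 1 slide that held both conditions, the median difference of the 57 genes was 1.30. The median array signal ranged lower in the retentostat, as given above, and its part in these differences was not tested.

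The gene furthest above 0.05 h-1 was PAS_chr2-2_0208 on both days. On day 1 it had 2.21, 2.78 and 2.68, against -0.98, -1.38 and -0.83 at 0.05 h-1, a 12.3-fold difference (log2 difference 3.62, SE 0.19, adjusted p = 9.68e-14, limma). On day 23 it had 2.55 ± 0.34, 12.2-fold above 0.05 h-1 (log2 difference 3.61, adjusted p = 1.09e-14, limma). Its means on the 5 retentostat days lay between 2.28 and 2.83, a range that did not pass the F test over the days given below. PAS_chr4_0627 was second on day 1, with 0.34, 0.77 and 0.58 on that day, against -1.91, -2.21 and -2.07 at 0.05 h-1 (6.18-fold, log2 difference 2.63, SE 0.084, adjusted p = 1.71e-17, limma). PAS_chr2-2_0403 was second on day 23, with 4.79, 5.01 and 5.29 on that day, against 2.08, 2.22 and 2.26 at 0.05 h-1 (7.18-fold, log2 difference 2.84, SE 0.14, adjusted p = 3.35e-15, limma). It also had the highest ratio to the pool of all 57 genes at 0.1 h-1.

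Lower on day 23 than at 0.05 h-1 were PAS_c131_0020 (log2 difference -1.87, SE 0.0996, adjusted p = 1.41e-14, limma) and PAS_chr3_0662 (log2 difference -1.41, SE 0.069, adjusted p = 3.05e-15, limma). PAS_chr4_0828 was also lower by the adjusted p value without reaching 2-fold (log2 difference -0.52, adjusted p = 4.49e-06, limma). All 3 had been chosen for a higher level at 0.025 h-1, with rule differences close to the threshold (1.103 for PAS_c131_0020, 1.104 for PAS_chr3_0662 and 1.002 for PAS_chr4_0828).

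**Figure D2:**
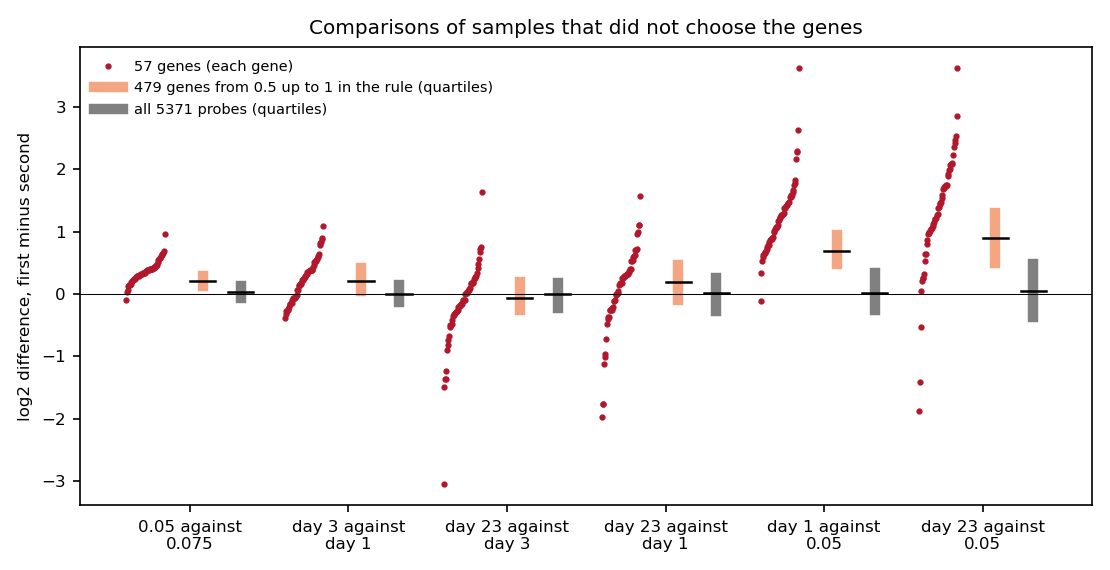
Log2 difference (first condition minus second) in the 6 comparisons whose samples did not choose the genes, for each of the 57 genes (red points, sorted within a comparison) and as quartile bars with a median line for the 479 genes with a rule difference of 0.5 up to 1 (orange) and all 5371 probes (grey). The red points lie mostly above 0 at 0.05 against 0.075 h-1 and in both comparisons of the retentostat with 0.05 h-1 (medians 0.35, 1.22 and 1.38) and on both sides of 0 in the comparisons between retentostat days.

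Within the retentostat, the genes went different ways. The days are repeated samples of the same runs, and the p values between days do not take this into account. By the moderated F test over the 5 days, 52 of the 57 genes (91.2%) had an adjusted p value below 0.05, against 83.6% of all probes, and in 10 of them (17.5%) the lowest and the highest day also lay more than 2-fold apart, against 5.38% of all probes. The range of the day means had a median of 0.55, with 24 genes under 0.5. It was smallest in PAS_chr3_1068 (0.16), whose day means lay between 1.36 and 1.53, and largest in PAS_chr3_0861 (3.85). The 5 genes without an adjusted p value below 0.05 were PAS_chr2-2_0208 (adjusted p = 0.0581), PAS_chr3_1171 (0.0542), PAS_c034_0012 (0.135), PAS_chr3_1068 (0.198) and PAS_chr1-1_0051 (0.104). The highest mean fell on day 1 for 9 genes, day 3 for 8, day 5 for 21, day 16 for 5 and day 23 for 14. Neither these counts nor that of the genes with a range under 0.5 were made over all probes. The lead of day 5 in its 21 genes was small, with a median of 0.052 above the next day.

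In the first step, day 3 against day 1, 1 of the 57 genes was called higher (0.186% of all probes) and 0 were called lower (0.112%). By the adjusted p value alone, 32 were higher and 4 lower (22.1% and 22.5% of all probes), with a median difference of 0.25, against 0.20 in the 479 genes and -0.001 over all probes. Without overlap of replicates, 29 were higher and 4 lower (21.1% and 21.2%). The gene called was PAS_chr3_0861, with -0.64, -0.13 and -0.26 on day 3, against -1.31, -1.63 and -1.35 on day 1 (2.12-fold, log2 difference 1.08, SE 0.26, adjusted p = 0.00183, limma). Without replicate 2 of day 3 or replicate 2 of day 1 its difference was 0.98 in either case, below 2-fold. PAS_chr3_1206, next in size, had 0.93, 1.01 and 0.91 on day 3, against -0.18, 0.39 and -0.05 on day 1 (1.86-fold, adjusted p = 4.99e-08, limma).

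In the long second step, day 23 against day 3, 1 gene was called higher (0.577% of all probes) and 5 lower (1.43%). By the adjusted p value alone, 15 were higher and 24 lower (30.3% and 32.8% of all probes), with a median of -0.12, against -0.06 in the 479 genes and -0.01 over all probes, and 13 and 22 had no overlap of replicates (29.9% and 32.4%). Both steps use the replicates of day 3, so they are given side by side and not combined. For neither step was a within-slide difference available.

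Over the whole retentostat phase, day 23 against day 1, 3 of the 57 genes were called higher (1.12% of all probes) and 5 lower (3.5%). By the adjusted p value alone, 30 were higher and 16 lower (36.2% and 34.2% of all probes), and 28 and 14 had no overlap of replicates (36.5% and 34.6%). The median difference was 0.17, against 0.19 in the 479 genes and 0.01 over all probes. On the 2 slides that held both days, the median of the 57 genes was 0.30 and 0.09. The number of genes called higher was 5 without replicate 3 of day 23.

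**Figure D3:**
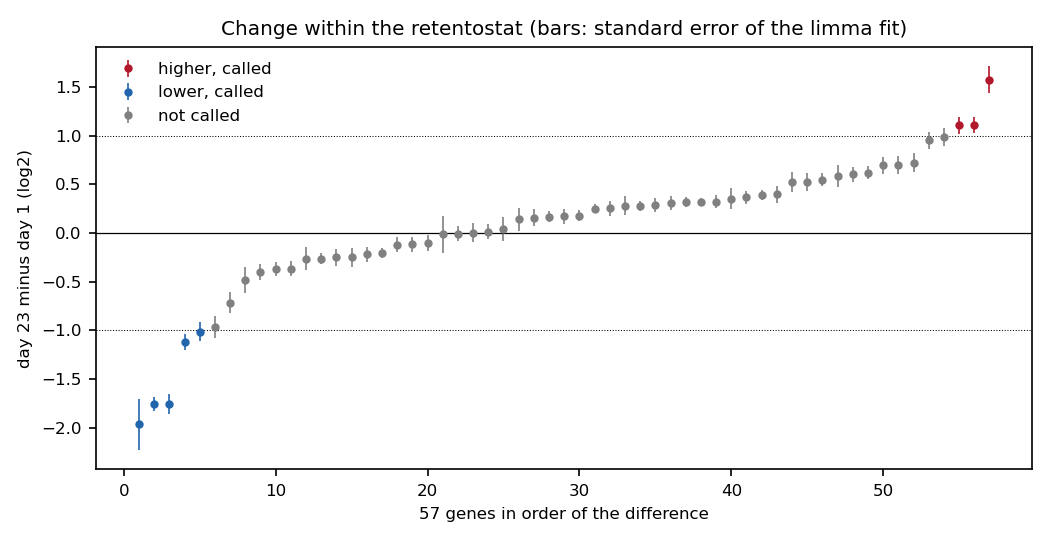
Log2 difference of day 23 minus day 1 for the 57 genes in order of size, with the SE of the limma fit as bars, in red for the 3 genes called higher, in blue for the 5 called lower and in grey for the others. Dotted lines mark a 2-fold change, and most genes lie within it on either side of 0.

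The genes that rose were PAS_chr2-2_0403, PAS_chr4_0821 and PAS_chr4_0152. PAS_chr2-2_0403 had 4.79, 5.01 and 5.29 on day 23, against 3.34, 3.48 and 3.55 on day 1 (2.98-fold, log2 difference 1.57, SE 0.14, adjusted p = 6.94e-10, limma). Most of that rise came late, since its mean was 3.40 ± 0.22 on day 3, 3.54 ± 0.23 on day 5 and 4.28 ± 0.33 on day 16. It was also the gene called higher on day 23 against day 3 (log2 difference 1.63, adjusted p = 9.85e-10, limma). PAS_chr4_0821 had 1.17, 1.16 and 1.18 on day 23, against -0.10, 0.21 and 0.07 on day 1 (2.16-fold, log2 difference 1.11, SE 0.081, adjusted p = 2.54e-11, limma). PAS_chr4_0152 had 1.19, 1.09 and 1.11 on day 23, against -0.15, 0.20 and 0.03 on day 1 (2.16-fold, log2 difference 1.11, SE 0.088, adjusted p = 9.42e-11, limma).

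PAS_chr4_0821 and PAS_chr4_0152 had the most similar course of all 1596 pairs among the 57 genes. Over the 27 replicates, the difference of PAS_chr4_0152 minus PAS_chr4_0821 averaged -0.13 with an SD of 0.084 (range, -0.32 to 0.02), whereas the median SD over pairs was 0.47. The means of PAS_chr4_0821 were -0.26, -0.58, -1.16 and -1.34 in the chemostats at 0.025, 0.05, 0.075 and 0.1 h-1, and 0.06, 0.50, 0.57, 0.97 and 1.17 over the 5 retentostat days. The means of both genes thus stood in one order over all 9 conditions, with 0.1 h-1 lowest and day 23 highest. The SD of a difference is a description over replicates that share arrays and slides, and it carries no test. Other pairs were nearly as close, such as PAS_chr3_0366 and PAS_chr2-1_0017 with an SD of 0.089. Whether the probes of PAS_chr4_0821 and PAS_chr4_0152 each read only their own transcript was not tested. The likeness is therefore one of probe signals, and the counts of genes that rose treat PAS_chr4_0821 and PAS_chr4_0152 as separate without a test of this.

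The genes that fell on day 23 against day 1 were PAS_chr3_0861, PAS_chr3_0662, PAS_c131_0020, PAS_chr4_0828 and PAS_chr1-3_0307. PAS_chr3_0861 had -3.33, -3.35 and -3.49 on day 23, against -1.31, -1.63 and -1.35 on day 1 (3.90-fold lower, log2 difference -1.96, SE 0.26, adjusted p = 5.24e-07, limma). In between it had peaked, with 0.45 ± 0.47 on day 5 and -2.43 ± 0.80 on day 16, the highest SD of any of the 57 genes. On day 16 its replicates were -3.23, -2.43 and -1.63, which lie far apart. On day 23 the gene was close to its level at 0.1 h-1 (-3.54 ± 0.016).

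PAS_chr3_0662 had 0.21, 0.17 and 0.13 on day 23, against 1.81, 2.09 and 1.88 on day 1 (3.38-fold lower, log2 difference -1.76, SE 0.069, adjusted p = 4.57e-16, limma). PAS_c131_0020 had -2.36, -2.44 and -2.55 on day 23, against -0.82, -0.54 and -0.73 on day 1 (3.37-fold lower, log2 difference -1.75, SE 0.0996, adjusted p = 2.37e-13, limma). These 2 genes were the only ones of the 57 with their highest mean at 0.025 h-1, and their means were below it on every retentostat day. In the chemostats both had their means in the order of the rates, and PAS_chr3_0662 had 1.95 ± 0.093 at 0.025 h-1, 1.58 ± 0.078 at 0.05 h-1, 1.36 ± 0.089 at 0.075 h-1 and 0.84 ± 0.018 at 0.1 h-1. In the retentostat its means became lower with each sampling day, with 1.93 ± 0.14 (day 1), 1.65 ± 0.033 (day 3), 1.38 ± 0.13 (day 5), 0.49 ± 0.074 (day 16) and 0.17 ± 0.040 (day 23). PAS_c131_0020 stood at -0.70 ± 0.15 (day 1), -1.09 ± 0.28 (day 3), -1.75 ± 0.063 (day 5), -2.42 ± 0.18 (day 16) and -2.45 ± 0.093 (day 23).

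PAS_chr4_0828, the gene closest to the threshold of the rule, had 0.58, 0.53 and 0.45 on day 23, against 1.67, 1.52 and 1.73 on day 1 (2.17-fold lower, log2 difference -1.12, SE 0.084, adjusted p = 4.15e-11, limma). PAS_chr1-3_0307 had -1.16, -1.20 and -1.31 on day 23, against -0.24, -0.18 and -0.20 on day 1 (log2 difference -1.01, SE 0.095, adjusted p = 1.71e-09, limma), after a highest mean of 0.28 ± 0.21 on day 5. The replicates of day 23 and day 1 did not overlap in any of the 8 genes that passed both criteria. That adds no support, since the same replicates chose these genes.

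**Figure D4:**
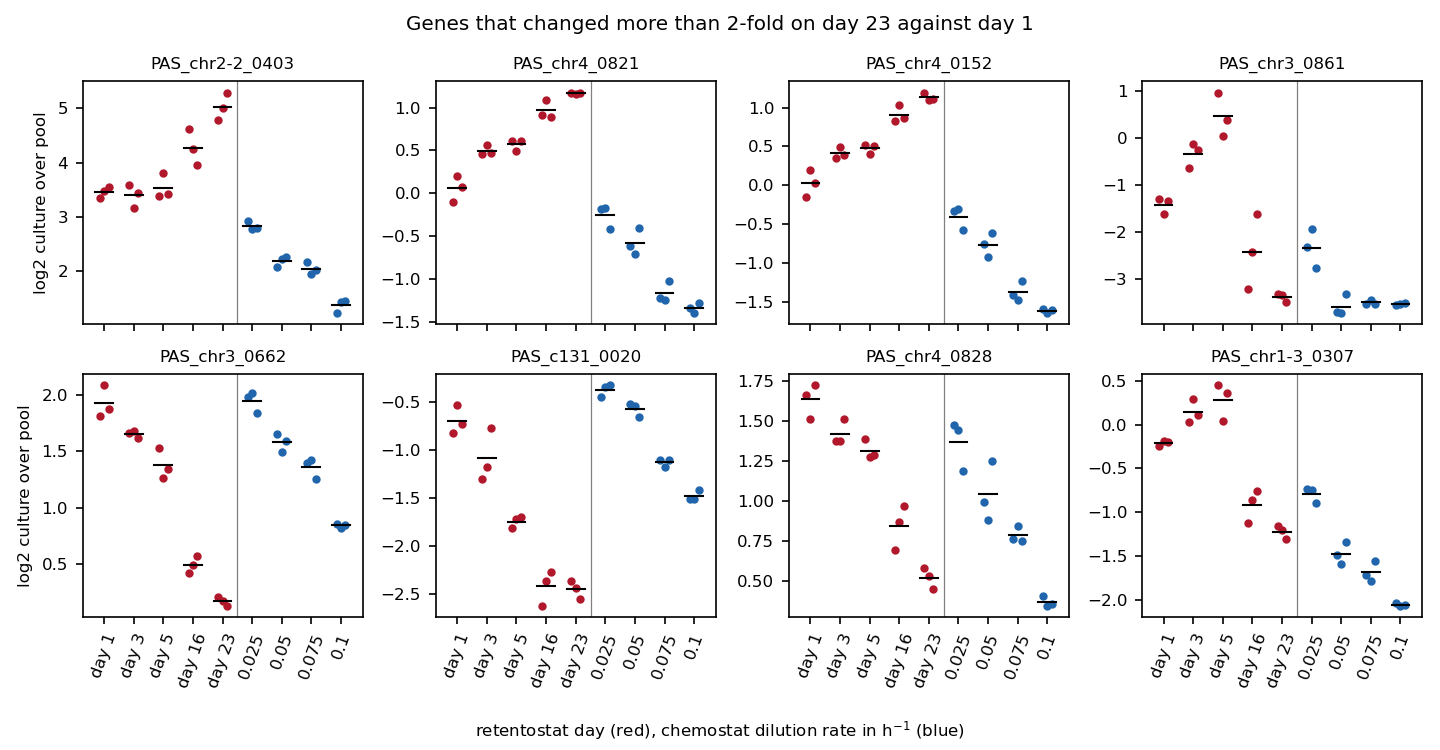
Log2 ratio of culture over pool in each of the 3 replicates (points, bars mark the mean) for the 8 genes that changed more than 2-fold on day 23 against day 1, on the retentostat days (red) and in the chemostats at the dilution rates shown in h-1 (blue). PAS_chr2-2_0403, PAS_chr4_0821 and PAS_chr4_0152 are highest on day 23, PAS_chr3_0861 and PAS_chr1-3_0307 have a maximum on day 5, and PAS_chr3_0662, PAS_c131_0020 and PAS_chr4_0828 decline over the days.

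Against day 3, the genes lower on day 23 were PAS_chr3_0861 (8.25-fold, log2 difference -3.05, adjusted p = 1.13e-09), PAS_chr3_0662 (log2 difference -1.48, adjusted p = 1.28e-13), PAS_chr1-3_0307 (log2 difference -1.37, adjusted p = 3.66e-11), PAS_c131_0020 (log2 difference -1.37, adjusted p = 7.73e-11) and PAS_chr4_0147, all by limma. PAS_chr4_0147 had 0.04, -0.11 and -0.30 on day 23, against 1.01, 1.23 and 1.09 on day 3 (log2 difference -1.24, SE 0.11, adjusted p = 1.72e-09, limma). Together with PAS_chr3_0230, these and the other genes called on day 23 against day 1 make up the 10 genes of the F test. PAS_chr3_0230 moved in the other part of the run, with 1.11 ± 0.053 on day 1 and 1.99 ± 0.16 on day 3. It had 2.25 ± 0.010 on day 16, its highest mean, and 2.06 ± 0.089 on day 23. Its range over the days, from day 1 to day 16, was 1.13.

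Few genes had a retentostat mean below that at 0.025 h-1, and their number was 2 for day 1, 4 for day 3, 3 for day 5, 6 for day 16 and 8 for day 23. Over all 9 conditions, the highest mean was in the retentostat for all but PAS_chr3_0662 and PAS_c131_0020. These counts use the replicates at 0.025 h-1 that chose the genes and compare different reactor systems. They were not made over all probes and are a description.

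Their place in the genome was described by the order of the reference gene table, without a test. Of the 54 genes in that table, 16 were on chromosome 1 (1.04% of its 1538 genes on the array), 10 on chromosome 2 (0.75% of 1333), 16 on chromosome 3 (1.34% of 1198) and 12 on chromosome 4 (1.24% of 971). A single pair, PAS_chr3_0125 and PAS_chr3_0126, were neighbors in that order. The gene length in the table had a median of 1350 bases in the 54 genes (279 to 4644) and 1197.5 bases in all 5040 matched genes.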

How the data were processed

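RNA of 9 conditions with 3 numbered replicates each was measured against a reference pool on 54 2-color arrays. The authors deposited scanner output with median spot intensities, local backgrounds and quality marks, and log10 ratios computed by the scanner software. They also deposited a table of processed log2 ratios, made with normexp, LOESS and Aquantile steps in limma, per the study's methods. In that table, 18 of the 54 columns ran as pool over culture and 36 did not, so the scanner output was used.

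Median intensities were background corrected (normexp, offset 50) and normalized by LOESS (R 4.3.3, limma 3.58.1, statmod 1.5.0). The 536 control spots of the 12958 spots on an array and spots with an outlier mark (0.676%) were left out. Spots of a probe and both dye orientations were averaged, and a model with 9 condition means was fitted to 27 replicates by limma. After eBayes (residual degrees of freedom 18, prior 5.39) the p values of all 5371 probes were adjusted by Benjamini-Hochberg. Calls needed both an adjusted p below 0.05 and more than a 2-fold change, as in the study. Only comparisons without the replicates at 0.025 and 0.1 h-1 were tested. No aligner or genome build of the array design is given in the sources used here. The number of arrays limits the precision.

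The genes, lists and comparisons were chosen with earlier results of these data known. Up to 2 genes in each direction per comparison, the largest and smallest rule differences and the genes nearest the threshold were named by rule, and all others after their values were seen. Lists of genes by product and promoter motifs were not run, since no gene names, products or promoters were at hand. In simulated replicate values for 5371 probes, all 100 probes changed by 1.5 and all 100 changed by 2.5 (log2) on day 23 against day 1 were called, with 0 false calls. The simulated replicates were independent, with no shared culture, run or slide, and both changes lay above the 2-fold limit. The simulation therefore checks the computation only, and not the p values of replicates that share cultures. Figures were drawn with matplotlib 3.10.9.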

Additional observations from a re-analysis of the deposited data

Results flagged for a closer look

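In 2 of the 57 genes, the later retentostat days and the chemostat at 0.025 h-1 lay on opposite sides of the chemostat at 0.1 h-1, in every replicate. PAS_c131_0020 was below 0.1 h-1 by a log2 difference of -0.27 on day 5, -0.94 on day 16 and -0.97 on day 23, whereas it was above by 1.103 at 0.025 h-1. PAS_chr3_0662 was below 0.1 h-1 by -0.35 on day 16 and -0.67 on day 23, and above by 1.104 at 0.025 h-1. The difference between the 2 directions was not tested, because the values at 0.025 and 0.1 h-1 chose the genes. Reactor type, cell density, time in culture and growth rate cannot be told apart in it.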

How the results depend on the processing

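Counts of genes called and the 2 medians to 0.1 h-1 were recomputed under each alternative. With the processed table of the authors as it stands, in which 18 columns run the other way, 0 genes were higher on day 3 against day 1, 18 higher and 1 lower on day 23 against day 3, 37 higher and 3 lower on day 23 against day 1, 5 higher and 18 lower on day 1 against 0.05 h-1, 3 higher and 0 lower on day 23 against 0.05 h-1 and 0 over the 5 days, and the medians to 0.1 h-1 were 0.0769 at 0.05 h-1 and 1.5514 on day 23. The direction turned there for PAS_chr3_0861 on day 3 against day 1 (-1.4723), PAS_chr3_0662 on day 23 against day 3 (0.7623) and day 1 (2.0765) and on day 1 against 0.05 h-1 (-3.5082), PAS_chr2-2_0208 on day 23 against day 1 (5.1124) and day 1 against 0.05 h-1 (-1.5039), and, on day 1 against 0.05 h-1, also for PAS_chr2-1_0192 (-0.1425) and PAS_chr2-2_0403 (-5.6466). With these columns turned, none of these counts or directions changed by more than the limits used here. The median at 0.05 h-1 was 0.7404 with an offset of 0 and 0.7573 with the scanner's log ratio, which also gave 5 genes higher on day 23 against day 1.

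Without the 2-fold criterion the counts were 43 higher at 0.05 against 0.075 h-1, 32 higher and 4 lower on day 3 against day 1, 15 and 24 on day 23 against day 3, 30 and 16 on day 23 against day 1, 56 higher on day 1 against 0.05 h-1 and 52 over the days. Median centring, kept outlier spots, probes above background on every array only, slide blocks, fits of the compared groups alone and an adjusted p value below 0.01 left every count within 1.5 times. Of the values of single named genes under all alternatives, 1884 kept their direction and side of the threshold, 17 passed it anew, 11 (9 of them with the processed table as it stands) no longer passed it and 8 reversed. A rule threshold of 0.9 gave 86 genes and one of 1.1 gave 37. Estimates of the rule difference added after the data were seen gave 68 genes with the slide as a fixed block, 61 from the Cy3 arrays and 54 from the Cy5 arrays, and of the 57 genes 57, 53 and 51 were at or above 1. No slide held both rates.

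Leaving out each replicate in turn gave 0 to 1 genes higher at 0.05 against 0.075 h-1 (1 without replicate 2 at 0.075 h-1), 0 to 1 higher on day 3 against day 1, 1 higher and 5 lower on day 23 against day 3, 3 to 5 higher and 4 to 6 lower on day 23 against day 1, 34 to 39 higher on day 1 against 0.05 h-1, 39 to 42 higher and 2 lower on day 23 against 0.05 h-1, and 10 to 14 over the days. The rule found 50 genes without replicate 2 and 64 without replicate 3 at 0.025 h-1. The medians were 0.67 to 0.71 at 0.05 h-1 and 2.03 to 2.13 on day 23.

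With the replicate number as a block, the number of genes called was 0, 1, 6, 8, 37 and 43 in the 6 comparisons, the same genes as without it. Deviations of replicates with the same number had a median correlation of 0.032 (-0.595 to 0.471, and over 0.1 in 33 of 108 pairs). Of 27 replicates, 10 correlated best with their own number. These pairs mix chemostats with retentostat days, so they do not settle whether the numbers pair samples across the days. The causes of the changes above were not tested. PAS_chr3_1171 and PAS_chr3_0353 are the genes with an array at 0.1 h-1 not above background, which limits how well their lowest level is known.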
